A study of Mus musculus with 5 samples.

Results

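Slc47a1-positive arachnoid-type fibroblasts were 249 of the 9505 nuclei kept from 5 single-nucleus RNA-seq libraries of mouse brain. A nucleus was counted when the unique molecular identifiers (UMIs, 1 per captured RNA molecule) of Slc47a1, Slc4a10, Foxp2, Adamtsl3 and Kcnb2 summed to at least 4 and to no less than those of the pial genes Lama1, Pdgfra, Adamts12, Cemip, Slc6a13 and Dcn, when at least 1 UMI came from Slc47a1 or Bnc2, and when the neuronal genes Snap25 and Syt1 gave at most 2. Kept nuclei had 200 to 4499 detected genes, under 10000 UMIs and under 5% mitochondrial UMIs. Pial-type nuclei, 278 in all, were taken by the mirror rule: at least 4 UMIs of the pial genes, more of these than of the arachnoid genes, and the same limits.

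The libraries came from 2 mice labelled Tmem119-creERT2-cGas wt/R241E and 3 labelled wt/wt, called R241E and WT here. In the study's model, Cre recombinase turns on a Cgas R241E allele, which encodes an overactive form of the DNA sensor cGAS, on a C57BL/6J background. All animals carried the tamoxifen-inducible Cre by their titles, and the R241E mice had received tamoxifen. Whether the WT mice had received it is not stated for these samples. The Tmem119 promoter drives Cre mainly in microglia and brain macrophages, so the fibroblasts described here were not the cells aimed at. The labels give hippocampus as tissue and microglia as cell type; the nuclei had been sorted as negative for the neuronal protein NeuN and the oligodendrocyte lineage protein Olig2, which leaves meningeal fibroblasts in the gate. Library totals ran from 4183709 to 10130667 UMIs. Of all barcodes, 13 occurred in more than 1 library, and none of these belonged to an arachnoid-type nucleus.

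The meninges are layered sheets of connective tissue around the brain. Pial fibroblasts lie on the brain's basement membrane, while arachnoid fibroblasts form the middle layer, whose outermost cells, the arachnoid barrier cells, are joined by tight junctions and carry efflux pumps that separate blood-borne solutes from the cerebrospinal fluid. Fibroblasts of the arachnoid are known for transporters of ions, bicarbonate and organic solutes. Slc47a1 encodes MATE1, which expels organic cations and drugs in exchange for protons. Its neighbour Slc47a2 encodes the related exporter MATE2.

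The paralogues lie in tandem on the minus strand of mouse chromosome 11. On GRCm38.p6 (the assembly also called mm10), RefSeq places Slc47a1 at chr11:61343400-61378842 and Slc47a2 at chr11:61301627-61342860, with 539 bases between the end of Slc47a1 and the start of Slc47a2. Because Slc47a2 begins just downstream of Slc47a1, whether RNA running past the end of Slc47a1 adds to the Slc47a2 counts was not tested. The 250 bases before the start of Slc47a2 (RefSeq, GRCm38.p6, chr11:61342861-61343110, minus strand, shown 5′ to 3′) are printed because both genes were high in this class of nuclei. Capitals mark the GC box GGGCGG, searched on both strands.

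Slc47a2 upstream: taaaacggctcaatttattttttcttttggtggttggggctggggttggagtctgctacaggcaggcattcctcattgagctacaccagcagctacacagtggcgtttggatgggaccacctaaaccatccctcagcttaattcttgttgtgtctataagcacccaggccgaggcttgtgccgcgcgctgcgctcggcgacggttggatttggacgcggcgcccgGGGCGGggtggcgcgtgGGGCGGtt

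The stretch held 2 GC boxes, both close to the start, and 58% of its bases were G or C, rising from 48.8% in the distal 125 bases to 67.2% in the proximal 125. GC boxes were common: 32.7% of 32851 promoter windows of 300 bases in the same table held at least 1.

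The arachnoid-type nuclei were well away from the threshold for the most part. The arachnoid genes of the rule gave between 4 and 302 UMIs per nucleus, with a median of 70, whereas the pial genes gave between 0 and 37, with a median of 0. Of the 249 nuclei, 174 had 40 or more arachnoid UMIs, 215 had 20 or more and 34 had fewer than 20. The pial genes were at 0 in 126 of them, and in 7 the arachnoid UMIs were below 3 times the pial ones. The nuclei were chosen by these UMI counts, which are therefore given as a description.

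Close to the threshold the picture was mixed. Of the 4 nuclei with exactly 4 arachnoid UMIs, 3 had more UMIs of another cell class's markers than of the arachnoid genes. Of the 5 nuclei just outside with 3 arachnoid UMIs, all 5 did, with a median of 25 UMIs of that other class. A further 61 kept nuclei reached 4 arachnoid UMIs without a UMI of Slc47a1 or Bnc2, 29 reached it with more pial UMIs, and 11 were left out by Snap25 and Syt1, 5 of them with 20 or more arachnoid UMIs.

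**Figure D1:**
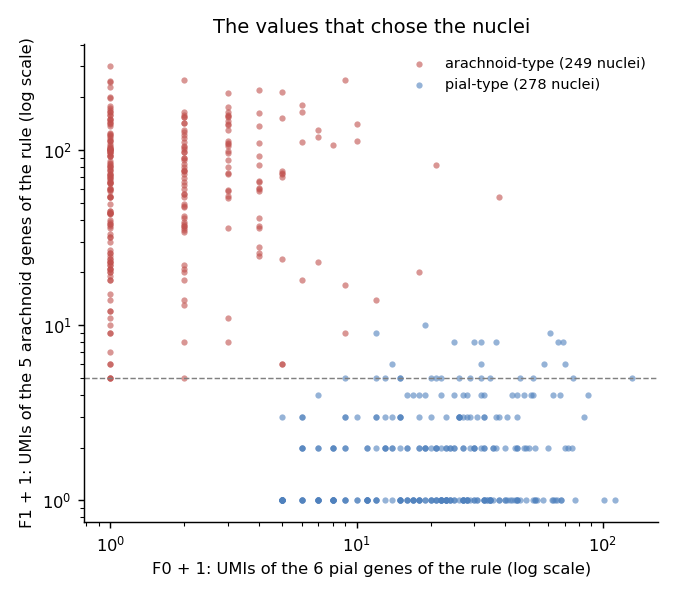
UMIs per nucleus of the 5 arachnoid genes used in the rule (vertical axis) against those of the 6 pial genes (horizontal axis), both plus 1 and on log scales, with arachnoid-type nuclei in red, pial-type nuclei in blue and a dashed line at the threshold of 4 arachnoid UMIs. The 249 arachnoid-type nuclei spread along the vertical axis up to 302 UMIs, and the 278 pial-type nuclei along the horizontal axis up to 131.

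Genes that the rule did not use separated the classes as well. Each nucleus was set against the mean log profile of either class in the other 4 libraries, with all genes of the rule removed. Of the 249 arachnoid-type nuclei, 229 (92.0%) were closer to the arachnoid profile, and all 278 pial-type nuclei were closer to the pial one. By library the arachnoid share was 92.9% and 95.2% in R241E mice 1 and 2 and 75%, 85% and 92.9% in WT mice 1, 2 and 3, lowest in the WT mouse with 12 such nuclei. With at least 20 UMIs required of the genes of either rule, 213 of 215 arachnoid-type nuclei (99.1%) and 158 of 158 pial-type nuclei were closer to their own class.

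Arachnoid-type nuclei were deeper than pial-type nuclei and microglia. Their median UMI count was 4662 and 3533 in R241E mice and 4643, 4333.5 and 3407.5 in WT mice, against 3341 and 2568.5, and 2590.5, 3132.5 and 2224.5, in pial-type nuclei. In microglia it was 3102.5 and 2614, and 2499, 2637 and 2076. The arachnoid-type median was above both others in all 5 libraries. Levels are therefore given as CPM values, the UMIs of a gene for every 1000000 UMIs summed over all arachnoid-type nuclei of a library. R241E mice 1 and 2 gave sums of 547050 and 238461 UMIs, and WT mice 1, 2 and 3 gave 55036, 96228 and 137138.

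The 6 genes that chose the nuclei were high in every library. Slc47a1 stood at 4418 and 4542 CPM in R241E mice and at 2598, 4624 and 4514 CPM in WT mice (4139 ± 865, mean ± SD over n = 5 libraries), and at 11.1 ± 10.95 in pial-type nuclei. Slc4a10, a sodium-driven exporter of chloride and importer of bicarbonate, stood at 7341 and 7473, and at 5833, 5362 and 5214 CPM. The transcription factor gene Bnc2 stood at 2979.6 and 3258, and at 1962, 3242 and 2574 CPM. WT mouse 1, with the fewest nuclei, was lowest for Slc47a1 and Bnc2 but not for Slc4a10.

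Not every gene of the rule was particular to these nuclei. Kcnb2, a voltage-gated potassium channel subunit, was at 2407 CPM in arachnoid-type nuclei and at 2657 in nuclei of the neuron class. Foxp2, a forkhead transcription factor, was at 2909.8 ± 555 CPM and still at 369.9 ± 103 in pial-type nuclei, while Adamtsl3, an ADAMTS-like matrix protein, was at 1456 ± 481 against 2.45 ± 3.73. Slc47a1 UMIs were found in 93.2% of arachnoid-type nuclei, 2.52% of pial-type nuclei and 0.633% of microglia, which do not use the gene and so mark the background of free RNA, at the median depths given above. With each nucleus thinned to 1000 UMIs, the shares were 89.2%, 1.09% and 0.209%.

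The label was checked against further markers. Of 14 general fibroblast genes, 13 passed the filter on low counts, of which 2 were higher in arachnoid-type and 5 in pial-type nuclei by the call defined below. Ranbp3l, at 18.1 against 1004 CPM, Lum, at 29.1 against 119, and Col3a1, at 63.2 against 261, were lower in arachnoid-type nuclei, as were Tbx18 and Ebf2, given below. Col1a2, a chain of fibrillar collagen I, was at 362 ± 72.8 CPM against 472 ± 238 in pial-type nuclei, Cped1 at 1838 ± 377 against 3398 ± 883, and the meningeal transcription factor gene Foxc1 at 108 ± 45.1 against 109.7 ± 39.4, so these 3 were present in both classes. Foxd1, a forkhead factor of meningeal cells, was at 404 ± 64.9 against 219.9 ± 33.3. Of 10 choroid plexus genes, 9 were too low to enter the comparison of classes, among them Folr1, Otx2, Aqp1 and Htr2c with no UMI in any arachnoid-type nucleus.

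Markers of the arachnoid barrier were found in part. Abcb1a and Abcg2, drug efflux pumps also high in endothelium, and Cldn11, a tight junction claudin, were all higher than in pial-type nuclei. Cdh1, or E-cadherin, which marks the barrier layer, stood at 106 and 134 CPM in R241E mice and at 72.7, 41.6 and 43.8 in WT mice, with no UMI in pial-type nuclei. It was detected in 22.9% of arachnoid-type nuclei and in 0.0362% of microglia, or in 7.99% and 0.0109% at 1000 UMIs. Dpp4, a surface peptidase, was at 83.4 ± 32.2 against 13.1 ± 4.10 CPM and the transcription factor gene Klf5 at 103 ± 43.2 against 25.8 ± 18.4.

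The remaining barrier genes were low or absent. Osr1 was at 17.8 ± 13.5 CPM and Ppp1r1a at 7.19 ± 6.76, neither above its pial level of 24.9 ± 13.6 and 29.8 ± 24.3, and Krt18, a keratin, had no UMI at all. The nuclei had RNA of Cdh1, Dpp4 and the efflux pumps, then, and little or none of Osr1, Ppp1r1a and Krt18.

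Markers of other cell classes were low, apart from some astrocyte genes. The summed level of 6 microglial genes was 309 to 1094 CPM across libraries, against 9211 to 10367 in microglia, and 64 of the 249 nuclei had 3 or more such UMIs. Sums of 6 genes each were 0 to 64.0 CPM for endothelium, 36.3 to 83.1 for mural cells, 65.6 to 273 for oligodendrocytes and 83.9 to 164 for neurons. The 6 astrocyte genes summed to 1226 to 3608 CPM, against 11229 to 14945 in astrocyte-type nuclei. Aqp4, Slc1a2 and Slc1a3 were at 2.81 ± 4.52, 41.3 ± 39.99 and 40.7 ± 41.5. Gpc5, Slc4a4 and Gja1 were at 1092 ± 955, 600 ± 296 and 478 ± 123 CPM, against 6159, 1950 and 444 in astrocyte-type nuclei. Gpc5, a heparan sulfate proteoglycan, varied, at 2563 and 952 CPM in R241E mice and 1363, 62.4 and 518 in WT mice.

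The comparison with pial-type nuclei describes what arachnoid-type nuclei expressed. It carries no p-value, because genes of the same cells had chosen the classes. Of 3096 genes above the filter, 382 were past 2-fold and higher in arachnoid-type nuclei in all 5 libraries (12.3%), and 378 were higher in pial-type nuclei (12.2%). The median log2 fold change over all genes was −0.01. Against this background, 19 of the 54 solute carrier genes in the comparison were higher in arachnoid-type and 11 in pial-type nuclei, of 390 in the files. The 19 include the rule genes Slc47a1 and Slc4a10, and the 11 the rule gene Slc6a13.

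Several carriers of ions were among the arachnoid genes. Slc26a7, an anion exchanger, was at 702 and 721 CPM in R241E mice and at 399.7, 779 and 547 in WT mice, with 1 UMI in all pial-type nuclei, a ratio of 574 with a counting interval of 103 to 22692. Slc9b2 and Slc9a2, exchangers of sodium for protons, were at 373 ± 110.4 and 346 ± 75.3 CPM against 0.844 ± 1.89 and 5.66 ± 7.98. Slc12a7, which moves potassium and chloride out of cells, was at 198 ± 34.9 against 8.04 ± 6.21. The ranges of these genes in arachnoid-type and pial-type nuclei did not overlap.

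Car13, a cytosolic carbonic anhydrase, which interconverts carbon dioxide and bicarbonate, was also higher in arachnoid-type nuclei. It stood at 462 and 604 CPM in R241E mice and at 509, 530.0 and 693 in WT mice, with 2 UMIs in all pial-type nuclei (ratio 225, counting interval 62.0 to 1862). It was found in 76.7% of arachnoid-type nuclei and in 0.308% of microglia, or in 38.7% and 0.124% at 1000 UMIs. No other of the 13 carbonic anhydrase genes in the files passed the filter.

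Among exporters of drugs and organic ions, Slc47a2 accompanied Slc47a1. It stood at 279.7 and 239 CPM in R241E mice and at 127, 229 and 299 in WT mice, with 2 UMIs in pial-type nuclei (ratio 110.3, counting interval 30.3 to 916), and no other class was above 10.5 CPM. Like Slc47a1, it was lowest in WT mouse 1. Slco4a1, an importer of organic anions including thyroid hormone, was at 219 ± 97.2 CPM with no pial UMI, which makes it at least 70.4-fold higher against a floor of 3 UMIs over the group.

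Carriers of amino acids and vitamins were found on the arachnoid side as well. Slc38a2, a sodium-coupled carrier of small neutral amino acids, was at 7285 and 7226 CPM in R241E mice and 4143, 6100.1 and 6869 in WT mice, against 224 to 772 in pial-type nuclei. Slc23a2, the ascorbate (vitamin C) carrier, was at 1249 ± 161 against 91.9 ± 18.7 CPM and Slc5a6, which imports biotin and pantothenate, at 191 ± 41.0 against 4.57 ± 4.22. On the pial side, where amino acid carriers were also found, Slc6a20a, which imports proline, was at 1329 ± 182 CPM against 5.11 ± 8.01 in arachnoid-type nuclei, Slc7a11, the cystine-glutamate exchanger, at 2798 ± 913 against 115 ± 116, and Slc22a8, an organic anion exchanger, at 342 ± 98.4 against 4.598 ± 4.22.

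Sulfate carriers were split between the classes. Slc26a2 was the arachnoid one at 262 ± 74.2 CPM against 11.3 ± 18.9 CPM (log2 fold change 5.19, SE 0.46), and Slc13a4 the pial one at 179 ± 52.0 against 5.11 ± 5.37 (−4.61, SE 0.40). In the plot of transporter levels, the arachnoid-type and pial-type libraries do not overlap for any gene shown.

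**Figure D2:**
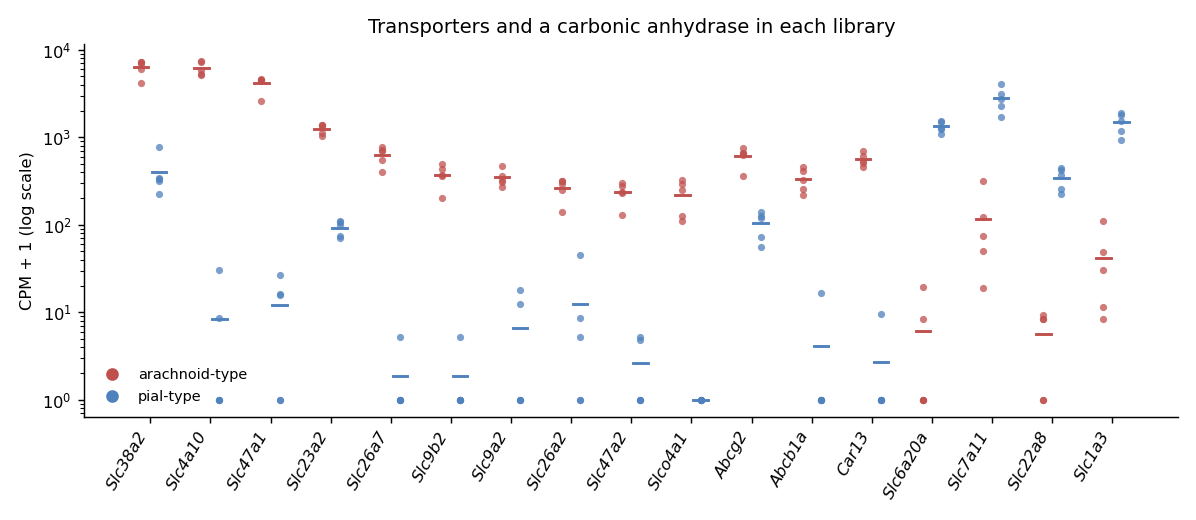
Level of 16 transporter genes and Car13 in CPM plus 1 (log axis) in arachnoid-type (red) and pial-type (blue) nuclei, with 1 point per library and a bar at the mean of the 5 libraries. Genes from Slc38a2 to Car13 were higher in arachnoid-type nuclei, among them Slc47a1 at a mean of 4139 against 11.1 CPM, and the last 4, Slc6a20a to Slc1a3, were higher in pial-type nuclei.

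ABC transporters divided in the same way, with 5 of 11 genes higher in arachnoid-type and 4 in pial-type nuclei. Abcb1a, or P-glycoprotein, was at 256 and 461 CPM in R241E mice and at 218, 322 and 408 in WT mice, and at 3.09 ± 6.92 in pial-type nuclei. Abcg2, or BCRP, was at 632 and 663, and at 363, 759 and 656 CPM, and Abcc4, which exports organic anions and cyclic nucleotides, at 345 ± 135 against 44.3 ± 12.7. In endothelial nuclei the same genes were at 1313, 1264 and 498 CPM. The endothelial marker genes summed to 0 to 64.0 CPM in arachnoid-type nuclei, and whether endothelial RNA added to these levels was not tested. The lipid transporters Abca8a and Abca8b were pial, with log2 fold changes of −6.26 and −4.10.

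The matrix genes set the classes apart most plainly in the basement membrane. All 5 laminin genes in the comparison were higher in pial-type nuclei, with a median log2 fold change of −3.02, among them Lamc1 at 79.5 ± 35.2 CPM in arachnoid-type against 639 ± 36.8 in pial-type nuclei. Lama1, the fifth, was part of the rule. Of 20 collagen genes, 8 were higher in pial-type nuclei, including the basement membrane chains Col4a5 (43.9 ± 40.1 against 1161 ± 133 CPM), Col4a6 (5.70 ± 8.84 against 1137 ± 209) and Col15a1, with 1 UMI in all arachnoid-type nuclei against 392 ± 63.4 CPM.

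Arachnoid-type nuclei had a smaller set of collagens and other secreted proteins of their own. The 4 collagens higher there were Col25a1, a transmembrane collagen, at 1081 ± 635 CPM, Col8a2, a short-chain collagen, at 95.4 ± 8.05, and Col6a1 and Col6a2 of the microfibrillar collagen VI at 115 ± 33.9 and 122 ± 34.9. Mgp, matrix Gla protein, an inhibitor of calcification, stood at 2715 and 2407 CPM in R241E mice and at 3089, 3668 and 3179 in WT mice, against 88.1 ± 52.6 in pial-type nuclei. It was found in 65.1% of arachnoid-type nuclei and in 1.54% of microglia (46.6% and 0.675% at 1000 UMIs), and its highest level in any other class was 269.5 CPM in mural nuclei.

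Several of these genes had no UMI in any pial-type nucleus. They were Ccn3, a matricellular protein (471 ± 111 CPM, at least 117-fold higher), Fn1, or fibronectin (316 ± 94.0, at least 84.3-fold), Tll1, a metalloproteinase of the BMP1 family (307 ± 63.6, at least 76.4-fold), and Pde11a, which degrades cyclic nucleotides (243 ± 39.8, at least 75.4-fold). Ccn3 was close to background in all other classes, at 6.86 CPM at most, whereas Fn1 reached 476 CPM in endothelial nuclei. Of 7 ADAMTS-family genes, Adamtsl1, at 772 ± 231 against 10.5 ± 10.5 CPM, Adamts2 and the rule gene Adamtsl3 were higher in arachnoid-type nuclei, and the rule gene Adamts12 in pial-type nuclei.

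Among genes of signalling proteins, Rspo3, Hhip and Npr3 were higher in arachnoid-type nuclei. Rspo3, which strengthens Wnt signalling, was at 1089 and 935 CPM in R241E mice and at 581, 644 and 591 in WT mice, against 20.8 ± 16.0 in pial-type nuclei. It was higher in either R241E mouse than in any WT mouse, but was not called between genotypes. Hhip, which binds and limits Hedgehog ligands, was at 470.2 ± 251 against 2.36 ± 3.45 CPM and Npr3, the clearance receptor of natriuretic peptides, at 325 ± 132 against 1.604 ± 2.20. Of 10 BMP and Wnt genes in the comparison, Rspo3 was the arachnoid one, and Wnt5a (19.7 ± 14.8 against 211 ± 67.1), Bmp7 and Bmp6 (294 ± 124 against 999.8 ± 253) were pial.

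Enzymes of retinoic acid synthesis were pial. Aldh1a2, the main enzyme of retinoic acid synthesis in the meninges, had 5 UMIs in all arachnoid-type nuclei, 2.30 ± 3.34 CPM against 207 ± 69.6, and Aldh1a1 was at 90.1 ± 73.6 against 408 ± 118. Both were past 2-fold in the fit and lower in arachnoid-type nuclei in all 5 libraries.

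Transcription factor genes gave each class a distinct set, with 7 of 32 higher in arachnoid-type and 8 in pial-type nuclei. Foxp1, a forkhead factor related to Foxp2, was at 4106 ± 678 against 1074 ± 163 CPM (log2 fold change 1.99, SE 0.18), Tbx15 at 873 ± 224 against 113 ± 58.2 (2.99, SE 0.24) and Eya2 at 974 ± 288 against 198 ± 77.7 (2.39, SE 0.21). The T-box factor Tbx18, a relative of Tbx15, was pial at 121 ± 64.6 against 583 ± 182 CPM, as were Ebf2 (28.01 ± 18.0 against 194 ± 43.2) and Rora (990.4 ± 478 against 3858 ± 429.8). Zic1, a zinc finger factor of the meninges, was at 369.7 ± 68.3 against 561 ± 137 and not past 2-fold.

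Adhesion and immune genes completed the description. Cldn11, the cadherin gene Cdh11 (882 ± 163 against 227 ± 166 CPM) and the gap junction gene Gja1 (478 ± 123 against 212 ± 79.4) were higher in arachnoid-type nuclei, and the tight junction scaffold genes Tjp1 and Cgnl1 in pial-type nuclei. Of 5 fibroblast inflammation genes in the comparison, 4 were pial and none arachnoid. Among them, Vcam1, an adhesion molecule for leukocytes, was at 10.1 ± 12.02 against 179 ± 107 CPM, Cxcl12, a chemokine, at 53.6 ± 25.7 against 180.1 ± 37.6, and Il33, an alarmin, at 94.1 ± 46.7 against 188 ± 84.8. Of 44 ribosomal protein genes, 14 were higher in arachnoid-type and none in pial-type nuclei, with a median log2 fold change of 0.85.

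**Figure D3:**
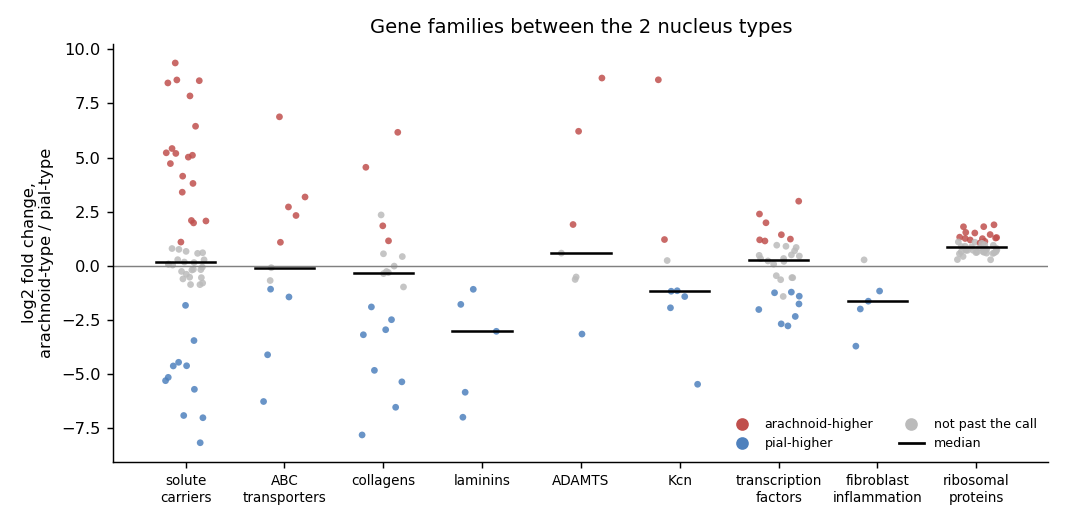
Log2 fold change of arachnoid-type over pial-type nuclei (edgeR, library as a term) for each gene of the listed families that passed the filter, with a bar at the family's median. Red points are genes higher in arachnoid-type nuclei and blue points genes higher in pial-type nuclei, past 2-fold and in all 5 libraries, and grey points are the rest, with the 5 laminins on the pial side at a median of −3.02 and ribosomal protein genes on the arachnoid side at 0.85.

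The genotype comparison first concerned how many arachnoid-type nuclei each library held. They were 113 of 2403 kept nuclei (4.70%, exact 95% Clopper-Pearson interval 3.89 to 5.63) and 62 of 1357 (4.57%, 3.52 to 5.82) in R241E mice. In WT mice they were 12 of 1534 (0.782%, 0.405 to 1.36), 20 of 1965 (1.02%, 0.623 to 1.57) and 42 of 2246 (1.87%, 1.35 to 2.52). The R241E shares were above every WT share, with means of 4.64 ± 0.0944% (n = 2) and 1.22 ± 0.572% (n = 3) and a difference of 3.41 percentage points. The two-sided exact permutation test gave p = 0.1, the smallest that 2 mice against 3 allow, and the intervals cover counting error only.

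The share depends on what it is counted against. Among arachnoid-type and pial-type nuclei together, arachnoid-type nuclei made up 61.1% and 41.9% in R241E mice and 35.3%, 30.3% and 44.7% in WT mice. These groups overlapped, and the exact permutation test over the 5 libraries gave p = 0.3 for the difference of 14.7 percentage points. Among all nuclei not of the microglia class they made up 8.34% and 7.60%, and 2.04%, 4.27% and 5.59%. Here the groups did not overlap, and the difference of 4.001 percentage points had an exact permutation p of 0.2.

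With every nucleus thinned to 1000 UMIs, at least 2 UMIs of a rule's genes were required, and Slc47a1 or Bnc2 was not. The difference within the fibroblasts was then 1.62 percentage points (exact permutation p = 0.8). Under this looser rule, arachnoid-type nuclei numbered 155 and 93 in R241E mice and 52, 49 and 70 in WT mice. With a UMI of Slc47a1 or Bnc2 before thinning also required, the difference was 15.3 percentage points (exact permutation p = 0.3). Libraries also differed in their makeup: microglia were 1048 and 541 nuclei in R241E mice and 947, 1497 and 1494 in WT mice. How much meninges was left on each sample was not measured, and genotype and dissection cannot be told apart from these counts.

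**Figure D4:**
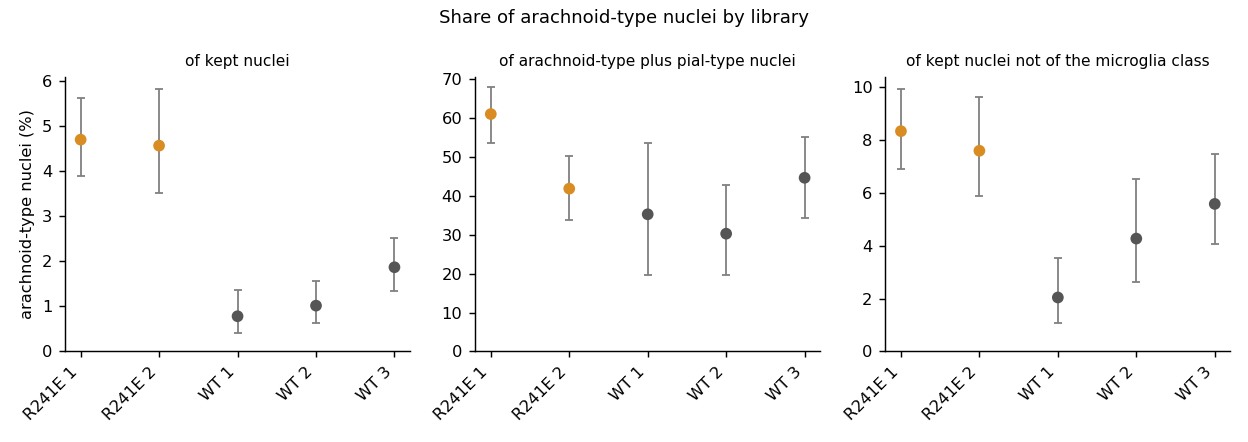
Share of arachnoid-type nuclei in percent by library (R241E orange, WT grey) among kept nuclei, among arachnoid-type plus pial-type nuclei and among nuclei not of the microglia class, with exact 95% Clopper-Pearson bars. Among kept nuclei the R241E points at 4.70 and 4.57 are above the WT points at 0.782 to 1.87, while in the middle panel the R241E point at 41.9 is below the WT point at 44.7.

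No gene was called between R241E and WT within arachnoid-type nuclei. The edgeR quasi-likelihood test on summed UMIs called 0 of 3135 genes (0%) at an adjusted p below 0.05, and 113 genes (3.6%) had an unadjusted p below 0.05. DESeq2 called 0 genes (52 unadjusted) and limma-voom 0 (229 unadjusted). The groups did not overlap in CPM for 546 genes (17.4%). Pial-type nuclei likewise gave 0 calls of 3789 genes, while oligodendrocyte-type nuclei gave 15 higher and 1 lower of 5830, astrocyte-type nuclei 3 higher and 0 lower of 8514, and microglia 701 higher and 371 lower of 13265. A missed call with 12, 20 and 42 WT nuclei does not show that levels were alike.

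The smallest p belonged to Nr1d2, the gene of the clock repressor REV-ERBβ, named after its values were seen. The gene lies at chr14:18204056-18239106 (RefSeq, GRCm38.p6). It stood at 172 and 222 CPM in R241E mice and at 54.5, 62.4 and 51.0 in WT mice, without overlap, a log2 fold change of 1.84 (SE 0.35). Its edgeR adjusted p was 0.711, so it did not pass. Without the nucleus richest in Nr1d2 in each library, the levels were 164 and 210.0 CPM against 20.3, 43.5 and 38.6, a step that lowers levels more where nuclei are few. In pial-type nuclei the groups were also apart (118 and 139 CPM against 74.4, 40.1 and 100.5). They were apart as well in oligodendrocyte-type nuclei (73.2 and 67.1 against 50.1, 30.5 and 49.8). In astrocyte-type nuclei they were narrowly apart (159 and 154 against 127, 149 and 143), and in microglia they overlapped (66.8 and 50.9 against 39.7, 65.0 and 69.4).

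Genes that answer interferon were examined next, since cGAS is a sensor upstream of interferon. Of 28 genes on the study's own list for interferon-responding microglia, 5 passed the filter, none was called, and their median log2 fold change was 0.39, against 0.00 over all genes. Stat2, a subunit of the interferon-activated transcription complex, was at 113 and 79.7 CPM in R241E mice and at 54.5, 41.6 and 36.5 in WT mice (log2 fold change 1.27, SE 0.49, edgeR adjusted p = 0.999). Oasl2, an antiviral factor of the OAS family, was at 108 and 117, and at 90.8, 125 and 58.3 CPM, so the groups overlapped. Rnf213 also overlapped, with its highest level, 164 CPM, in WT mouse 1.

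Of the antigen presentation genes, B2m and H2-D1 were not called either. B2m, the light chain of MHC class I, was at 87.7 and 79.7 CPM in R241E mice and at 36.3, 31.2 and 65.6 in WT mice (log2 fold change 0.87 with an SE of 0.52, not called). H2-D1, a classical MHC class I heavy chain (chr17:35263094-35267497), was at 95.1 and 75.5 CPM in R241E mice and at 145, 52.0 and 109 in WT mice (−0.13, SE 0.43). H2-K1, another such heavy chain, was below the filter and so untested, at 85.9 and 41.9 CPM against 36.3, 41.6 and 36.5. B2m and H2-K1 did not overlap between the groups, the latter by a narrow margin, and H2-D1 did. Of the fibroblast inflammation genes, Nfkb1 was at 188 and 256 CPM against 90.8, 156 and 168 (0.64, SE 0.32) and Il33 had a log2 fold change of −0.44, neither of them called.

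Single nuclei weighed heavily on these sums. Summed over 25 of the listed interferon genes, arachnoid-type nuclei had 724 and 478 CPM in R241E mice and 1345, 385 and 350 in WT mice. The highest value, in WT mouse 1, came from 74 UMIs, of which 67 were in 1 nucleus with 59 arachnoid UMIs and 2 microglial UMIs. In R241E mouse 1 the top nucleus gave 65 of 396 UMIs. Without the top nucleus of each library, the sums were 611 and 437 CPM in R241E mice and 136, 295 and 210 in WT mice, and the groups no longer overlapped. This step removes the nucleus highest in the value compared, and takes 1 of 12, 20 and 42 nuclei in WT mice but 1 of 113 and 62 in R241E mice, so by construction it can lower the WT sums more.

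The same sums were taken in other classes. In pial-type nuclei the summed level was 798 and 1114 CPM in R241E mice and 387, 394 and 449 in WT mice, and in oligodendrocyte-type nuclei 441 and 758, and 147, 142 and 152. Neither of those classes overlapped between the genotypes, with or without the top nucleus.

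**Figure D5:**
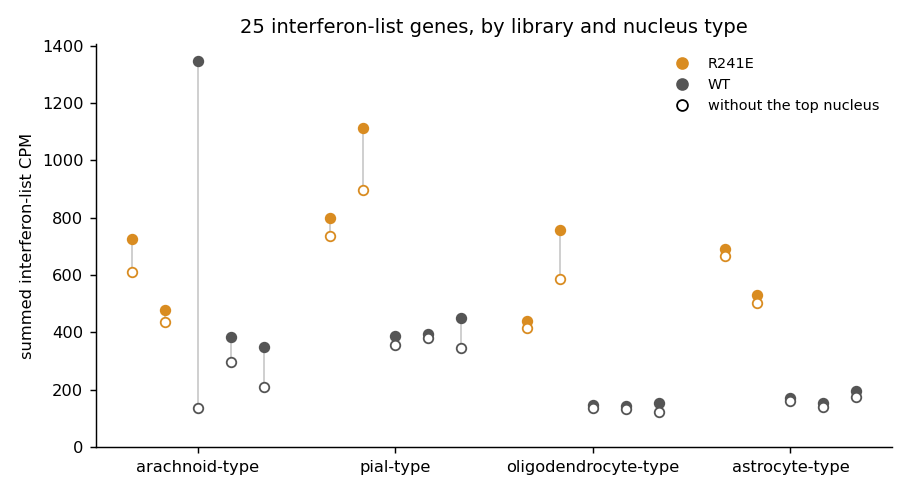
Summed level of 25 interferon genes in CPM by library (R241E orange, WT grey) in arachnoid-type, pial-type, oligodendrocyte-type and astrocyte-type nuclei, with filled points for all nuclei and open points without the nucleus highest in these UMIs. In arachnoid-type nuclei the WT mouse 1 point falls from 1345 to 136 CPM without 1 nucleus, and the other points of that class move by less.

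Whether the genotype effect in arachnoid-type nuclei differed from that in other classes was tested directly, with library as a term. Against pial-type nuclei, edgeR called 5 of 4672 genes (0.107%), all with a more negative effect in arachnoid-type nuclei: Lhfpl3, Grm7, Kcnd2, Ptprz1 and Brinp3, known from neurons and oligodendrocyte precursors. Nuclei with 20 or more arachnoid UMIs held 11 of the 47 Lhfpl3 UMIs of arachnoid-type nuclei, 3 of 25 for Grm7, 26 of 55 for Kcnd2, 7 of 61 for Ptprz1 and 0 of 36 for Brinp3. For Kcnd2, all 26 UMIs in WT mouse 2 were in 1 nucleus with 8 arachnoid UMIs, and for Grm7, all 7 in WT mouse 1 were in 1 nucleus with 4. In pial-type nuclei, Kcnd2 was at 706 and 106 CPM in R241E mice and at 0, 6.69 and 7.73 in WT mice. There R241E mouse 1 was also highest for Grm7 (513 CPM), Lhfpl3 (292) and Ptprz1 (346). For Brinp3 it was not, at 118 CPM against 536 in WT mouse 1. With at least 20 rule UMIs required, none of the 5 was called. Against astrocyte-type nuclei edgeR called 0 of 9088 genes (0%), with 428 at an unadjusted p below 0.05 and 152 by DESeq2, which also called 0.

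Against oligodendrocyte-type nuclei 34 of 7673 genes were called (0.443%), 9 with a more positive and 25 with a more negative effect in arachnoid-type nuclei. Several of these differences went with 1 library of oligodendrocyte-type nuclei that stood apart, as given below. H2-D1 was the one called under all 14 alternatives tried. In oligodendrocyte-type nuclei it was at 157 and 164 CPM in R241E mice and at 0, 6.77 and 9.95 in WT mice, whereas arachnoid-type nuclei had the 52.0 to 145 CPM of WT mice given above. The difference in the log2 effect was −4.83 (SE 0.70, edgeR adjusted p = 2.15e-08), and −4.09 without the top interferon nucleus of each library. Without each library's nucleus highest in H2-D1, arachnoid-type levels were 90.4 and 64.0 CPM in R241E and 39.0, 33.2 and 60.1 in WT mice. These WT levels were still above the oligodendrocyte level in each library, and the groups no longer overlapped. By construction, this step can lower the WT levels more. Pial-type nuclei also had H2-D1, at 129 and 114 CPM in R241E mice and at 44.6, 53.5 and 61.9 in WT mice. Without the top nucleus, the WT pial-type levels were 30.3, 34.0 and 39.5 CPM.

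Nuclei also varied among themselves within a library. Over nuclei with 20 or more arachnoid UMIs, 10 genes whose levels went most with Mgp were picked in R241E mouse 1 (103 nuclei): Ecrg4, Itm2b, Igfbp6, Fxyd5, Tmem176b, Ubb, Islr, Aldoa, Cst3 and Cd81. In the libraries not used to pick them, all 10 correlated positively with Mgp, with a median Pearson r of 0.583 over 53 nuclei in R241E mouse 2 and of 0.738, 0.756 and 0.649 over 9, 17 and 33 nuclei in the WT mice. Ecrg4, a secreted peptide precursor, was the closest to Mgp in the picking library, and had 0.645 to 0.766 in the others. The 10 genes picked for going against Mgp, led by Foxp1, had medians of 0.0688, −0.318, −0.303 and −0.267 there. The points of a correlation share library and depth, so these values are a description.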

How the data were processed

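Single-nucleus RNA-seq of sorted brain nuclei from 5 mice (2 R241E, 3 WT) was deposited as UMI counts per gene and nucleus; per the labels, the authors made these counts with Cell Ranger 7.0.0 on mm10. No normalization had been applied. The rule for arachnoid-type nuclei, the gene lists and the named genes were chosen with earlier results of these data known. Nuclei within the study's limits were kept, and other classes were assigned by the largest UMI sum over 6 markers each, with at least 3. No doublet caller was run: nuclei with 3 or more microglial UMIs were left out as an alternative. UMIs were summed per library and class, filtered with filterByExpr, scaled by TMM and tested with edgeR 4.0.16 (quasi-likelihood, Benjamini-Hochberg over all genes, called at an adjusted p below 0.05). Levels in CPM were computed from these sums. Classes were compared with library as a term, called past 2-fold and in the same direction in all 5 libraries. DESeq2 1.42.0 and limma 3.58.1 (voom) were alternatives, in R 4.3.3. The exact permutation test went through every grouping of the libraries, and the Clopper-Pearson intervals were computed in SciPy 1.17.1. The tests were also run on simulated library sums with the same dispersion for every gene. Those sums do not mimic UMIs concentrated in single nuclei, so they cannot show how the tests behave there. The study's per-nucleus test was not used, because nuclei of 1 mouse are not replicates. Sums of arachnoid-type nuclei held 55036 to 547050 UMIs, so the WT levels are the least precise, and intervals cover counting error only. Named genes were those of the rule, the 15 largest changes in each direction at 100 CPM or more, and at most 4 called genes of each list in each direction; further members of these lists were named with their values. Between genotypes, called genes (at most 15 in each direction) and at most 12 interferon or inflammation genes were named. A few genes of the lists are not reported here.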

Additional observations from a re-analysis of the deposited data

Results flagged for a closer look

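These genes were noted because the difference in the genotype effect (R241E over WT, log2) between arachnoid-type nuclei and another class passed the edgeR test at an adjusted p below 0.05. Against pial-type nuclei the differences were −5.01 for Lhfpl3, −5.53 for Grm7, −7.48 for Kcnd2, −3.37 for Ptprz1 and −5.68 for Brinp3. All 5 are genes of neurons or oligodendrocyte precursors, and none was called when 20 rule UMIs were required of each nucleus.

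Against oligodendrocyte-type nuclei, 9 differences were positive: 4.19 for Nrxn3, 2.87 for Col23a1, 3.87 for Ppm1l, 2.83 for Slit2, 7.33 for Gria2, 2.17 for Ccser1, 2.93 for Sgcd, 2.61 for March3 and 6.64 for Ralyl. Of the negative ones, the 15 with the smallest p were −5.61 for Fam155a, −4.83 for H2-D1, −4.36 for Grm7, −5.67 for Brinp3, −4.64 for Rtl4, −3.97 for Sorcs1, −3.27 for Trpm3, −3.90 for Cdh8, −5.83 for Gm20631, −3.13 for Tmem132b, −7.61 for Ifit3, −2.06 for Aldoa, −5.43 for Fat4, −3.14 for Dpp6 and −9.24 for Gm48606. Ifit3, an interferon-induced gene, and H2-D1 were the immune genes among them. Some differences rested on few UMIs in arachnoid-type nuclei: 5 for Gm48606, 4 of them in 1 nucleus of WT mouse 1, and 24 for Ifit3. For Nrxn3, 49 of 84 UMIs were in 1 nucleus of R241E mouse 2 with 8 arachnoid UMIs. For Ralyl, 24 of 49 were in 1 nucleus of R241E mouse 1 with 4. Other differences went with 1 library of oligodendrocyte-type nuclei. There, Trpm3, Rtl4 and Fam155a were at 636, 127 and 180 CPM in R241E mouse 1. Their highest levels in the other libraries were 13.5, 2.49 and 8.84. Slit2 and Nrxn3 were at 149 and 464 CPM in oligodendrocyte-type nuclei of WT mouse 2, and at most at 16.0 and 104 in the others. Nrxn3, Gria2, Ralyl, Fam155a, Grm7, Brinp3, Sorcs1, Cdh8, Tmem132b, Dpp6 and Gm48606 were not called with 20 rule UMIs required. Of the 34 genes, 18 were also called with 20 rule UMIs required, and H2-D1 alone under all 14 alternatives, with differences between −5.54 and −4.07 and edgeR or DESeq2 adjusted p-values between 1.03e-08 and 0.0485. Against pial-type and astrocyte-type nuclei H2-D1 was not called (−1.17, edgeR adjusted p = 0.835, and −3.10, edgeR adjusted p = 0.291). Under the 14 alternatives it was called 3 times against astrocyte-type nuclei, among them with 20 rule UMIs required, and 0 times against pial-type nuclei.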

How the results depend on the processing

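The numbers of WT nuclei (12, 20 and 42) limit the genotype comparison most. The 3 shares kept their direction under every alternative, with the difference among kept nuclei between 2.62 and 3.87 percentage points. Among nuclei not of the microglia class it was 2.08 to 4.81 points, against 4.001 as reported, the lowest with thinning to 1000 UMIs. Among fibroblasts thinning gave 1.62 points against 14.7. That setting also lowered the threshold to 2 rule UMIs and dropped the need for Slc47a1 or Bnc2. With a UMI of either required before thinning, the differences were 3.91 and 15.3 points. Without R241E mouse 1 the difference among fibroblasts was 5.13 points, and without R241E mouse 2 it was 24.3. The mouse numbers do not pair the samples by design. Deviations from the genotype mean correlated at 0.243 and 0.230 in the 2 same-numbered pairs. With 2 R241E mice the deviations are mirror images, so swapping those mice gave −0.243 and −0.230. These values therefore cannot show whether same-numbered mice deviated together. With the mouse number as a replicate block, edgeR called 6 genes higher and 9 lower in R241E. With no filter on low counts it called 20 higher and 20 lower, and leaving out 1 mouse gave 0 to 3 higher (3, namely Pde10a, Nrxn3 and Ccser1, without R241E mouse 1). Where 1 R241E mouse was left, it was assumed to vary like the WT mice.

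Calls of a different genotype effect depended on the nuclei used. Against pial-type nuclei (5 calls) there were 0 with DESeq2, with nuclei carrying microglial UMIs left out or without upper limits on depth, 1 with at least 6 or 20 rule UMIs, 12 without the filter, and 0 to 27 leaving out 1 mouse (27 without R241E mouse 2, 12 without WT mouse 1, 9 without R241E mouse 1, 0 without WT mouse 3). Against oligodendrocyte-type nuclei (34 calls) there were 1 with DESeq2 or without upper limits, 13 with DESeq2 size factors, 14 with at least 3 rule UMIs, 22 with at least 20 or with microglial UMIs excluded, 19 without the filter, and 7 to 35 leaving out 1 mouse (7 without R241E mouse 1, 13 without WT mouse 3). Against astrocyte-type nuclei (0 calls) there were 31 with at least 20 rule UMIs, 1 with at least 6, 29 without the filter and 0 to 14 leaving out 1 mouse (14 without R241E mouse 2). The settings with 20 rule UMIs, the contrasts with oligodendrocyte-type and astrocyte-type nuclei, the thinning with Slc47a1 or Bnc2 required and the omission of the top interferon nucleus were chosen after seeing the data. The causes were not tested.

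Differences against oligodendrocyte-type nuclei that changed sign were 0.070 for Brinp3, 1.23 for Cdh8 and 3.24 for Tmem132b with at least 20 rule UMIs, and 0.20 for Dpp6 with at least 6. Leaving out 1 mouse, they ran from −0.077 to 6.38 for Nrxn3, from −6.18 to 1.92 for Rtl4, from −5.16 to 0.66 for Trpm3, from −5.37 to 3.10 for Cdh8, from −3.95 to 0.72 for Tmem132b, from −6.49 to 1.38 for Fat4 and from −4.65 to 0.61 for Dpp6. Without the filter, 829 genes were higher in arachnoid-type and 1034 in pial-type nuclei. The share of pial-type nuclei closer to their own profile was 99.5% to 100% leaving out 1 mouse. Of the other values for single genes, 1699 kept direction and side of the threshold, 187 lost a call, 8 gained one and 187 moved by more than the spread between libraries.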
